A study of Mus musculus with 12 samples.

Results

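The genes of the cytosolic ribosomal proteins, the protein parts of the ribosomes that translate nuclear-encoded mRNAs, were followed in mouse liver across 2 genotypes and 2 diets. A gene was included when its identifier mapped to a protein-coding symbol made of Rpl or Rps, a number and at most 1 letter a, l or x, or when it was Rplp0, Rplp1, Rplp2 or Rpsa. This rule, which uses no measured value, gave 80 of the 35275 genes in the table, 31 with Rps symbols and 49 with Rpl symbols. By role, 30 encode proteins of the small subunit, 43 of the large subunit and 3 of the stalk, and 4 (Rpl3l, Rpl10l, Rpl39l and Rps27l) are paralogs with a restricted or partly overlapping use. Of the 80, 76 had a mean of at least 0.5 FPKM (fragments per kilobase of gene, scaled by the mapped fragments of the library) over all libraries and entered the test.

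The 12 libraries come from livers of 12 male mice, 3 per group, and the 4 groups are wild-type (WT) mice on chow, whole-body Pctp-/- knockout mice on chow, WT mice on a methionine- and choline-depleted (MCD) diet and Pctp-/- mice on the MCD diet. Pctp encodes PC-TP, a carrier of phosphatidylcholine, and the MCD diet is a model of fatty liver with injury. Pctp is missing from every tissue of the knockout, so a difference between genotypes need not arise in hepatocytes, and the strain, age and time on the diet are not given in the sources used here. The genotypes were compared on each diet and the diets in each genotype, and the size of the diet effect was then compared between genotypes.

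Each ribosome holds 1 copy of nearly every ribosomal protein, apart from the stalk, and unassembled proteins are degraded, so the genes are generally expressed together. Many of their mRNAs begin with a C followed by a run of pyrimidines, the terminal oligopyrimidine (TOP) tract, through which mTORC1 and LARP1 adjust their translation and stability. In the liver, which makes most plasma proteins, these mRNAs are among the abundant transcripts, and their genes have many processed pseudogene copies elsewhere in the genome.

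The start regions of 5 genes are printed as examples. Rpl38, Rps27 and Rps21 are among the largest rises on the MCD diet. Rps6 is a target of the kinase downstream of mTORC1, and Rps2 is the gene that fell in Pctp-/- livers. Longer runs of pyrimidines exist, such as 13 bases at the annotated start of Rpl15. Not all large rises have a tract at the annotated start: the regions of Rpl39 and Rpl41 and that of a second annotated start of Rps21 have none. The printed regions are from RefSeq on GRCm38.p6, 5′ to 3′, from 35 bases before to 15 bases after the annotated start, and capitals mark the run of pyrimidines that begins with C at that start.
Rpl38 (chr11:114668545-114668594, plus strand): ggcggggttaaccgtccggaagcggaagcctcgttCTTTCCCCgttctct
Rps27 (chr3:90213634-90213683, minus strand): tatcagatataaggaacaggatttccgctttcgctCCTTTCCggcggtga
Rps21 (chr2:180257344-180257393, plus strand): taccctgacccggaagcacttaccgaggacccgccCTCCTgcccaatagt
Rps6 (chr4:86857353-86857402, minus strand): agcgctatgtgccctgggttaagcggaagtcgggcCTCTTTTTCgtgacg
Rps2 (chr17:24720028-24720077, plus strand): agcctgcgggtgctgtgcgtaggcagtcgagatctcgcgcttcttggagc

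RefSeq start regions (250 bases before to 50 bases after the annotated start, 300 in all) were at hand for 60 of the 80 genes, and several genes have more than 1 annotated start, which gives 72 regions. A C followed by pyrimidines, with a run of at least 5 bases, stood at the annotated start in 13 of the 72 regions (18.1%) and in 2.51% of 32851 regions of all genes. The letters CCGGAAG, the core bound by ETS factors such as GABPA, were on either strand of 26 regions (36.1%, against 8.86% of all regions). AAGATGG, the core bound by YY1, was in 11 (15.3%, against 6.34%), and TATAAA was in 6 (8.33%, against 13.6%). These are matches of letters, and an annotated start that lies a few bases from the true one hides a tract. The 13 tested genes with a tract at the annotated start had a median log2 fold change on MCD of 0.87 in WT and 0.70 in Pctp-/- livers. For the 43 tested genes with a region and no tract, the medians were 0.94 and 0.69.

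The chow libraries held 30486576 to 55179468 uniquely mapped reads and the MCD libraries 33463498 to 46246856, and the share of reads that mapped was 82.2 to 83.7% for chow but 92.8 to 94.5% for MCD. The read error rate was 0.03% in all chow libraries and 0.01% in all MCD libraries, and did not differ between the genotypes of a diet. The labels name no sequencing run, and diet and these read measures cannot be told apart. Reads mapping to several places, which bear on genes with copies, made up 4.07 to 4.84% of the chow and 6.5 to 7.4% of the MCD reads. Pctp was at 1.21 to 2.65 FPKM in WT and 0.330 to 0.566 FPKM in Pctp-/- livers on chow, and at 3.61 to 7.90 and 0.156 to 0.329 FPKM on MCD, so no library went against its label. Hepatocyte markers were abundant in every group. Their summed level over 11 genes was 52604 to 61055 FPKM in WT and 57149 to 59234 FPKM in Pctp-/- livers on chow. On MCD it was 67146 to 77089 and 84420 to 91505 FPKM. Alb alone had means of 27788 and 43899 FPKM in WT livers on chow and MCD, and of 28262 and 57218 FPKM in Pctp-/- livers. Of the 11 genes, 5 fell and 1 rose on MCD in WT livers (limma adjusted p under 0.05, median log2 fold change -0.42). In Pctp-/- livers 3 fell and 2 rose (median -0.045). Of all genes tested, 22.5% fell and 34.5% rose in WT livers, and 24.4% and 26% in Pctp-/- livers.

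Taken as a whole, the 80 genes made up 2.70, 3.12 and 3.16% of the summed FPKM in WT livers on chow and 3.13, 3.09 and 3.31% in Pctp-/- livers on chow. On MCD they made up 5.57, 6.21 and 6.38% in WT and 5.48, 5.12 and 5.19% in Pctp-/- livers. The chow and MCD livers did not overlap in either genotype. On chow the genotypes overlapped, and on MCD every Pctp-/- liver lay below every WT liver.

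**Figure D1:**
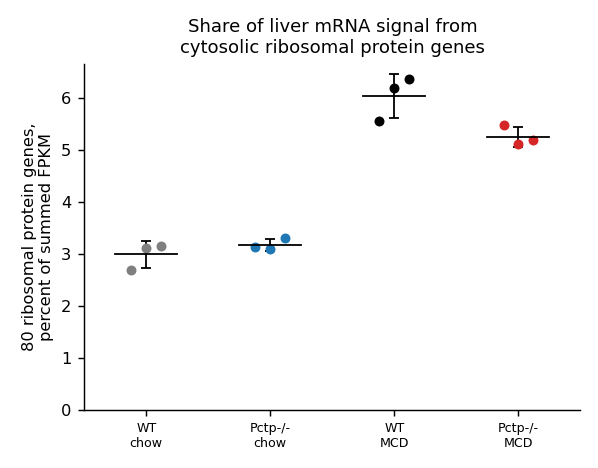
Percent of the summed FPKM of each library that came from the 80 ribosomal protein genes (vertical axis), by group; points are livers, and the lines and bars give the mean ± SD (n = 3). All 6 MCD livers lie at 5.12% or above and all 6 chow livers at 3.31% or below.

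On the scale of FPKM, which is per length, the level differed widely between the genes. The most abundant over all livers were Rps27 (mean 1196 FPKM), a zinc-binding protein of the small subunit, Rplp1 (mean 993 FPKM), an acidic protein of the stalk that recruits translation factors, and Rpl41 (mean 719 FPKM), the shortest of the ribosomal proteins. In WT livers on chow the order began with Rplp1 (476, 629 and 640 FPKM) and Rps27 (285, 592 and 567 FPKM), 2 neighbours that do not differ beyond their spread. Of the 80, 52 were at 100 FPKM or more in every liver and 75 at 10 FPKM or more in every liver.

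The 4 genes that were not tested were Rpl3l, the form of Rpl3 used in muscle (mean 0.308 FPKM), Rpl24 (mean 0.240 FPKM), Rpl39l, a paralog used in testis (mean 0.0236 FPKM), and Rpl10l, another testis paralog, which was listed at 0 in every liver. Rpl24 encodes a core protein of the large subunit. Its model shares exons on the same strand with Gm28037, listed at 0 in every liver, and it has 4 near-identical copies, of which the 3 in the table had 3.61 to 6.70 FPKM in sum, so its level is uncertain. Near-identical copies, meaning other gene models with at least 95% identity over at least 50% of the length, were found for 60 of the 80 genes. How reads that match several copies were assigned is not given in the sources used here, which limits every level of these genes.

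On the MCD diet, WT livers held higher levels of nearly all ribosomal protein mRNAs. Of the 76 genes tested, 73 rose, 0 fell and 3 were not called (limma adjusted p under 0.05, over all genes tested), while of all 12466 genes tested 34.5% rose and 22.5% fell. The median log2 fold change on the log2(FPKM + 1) scale was 0.97 for the ribosomal protein genes, from -0.34 to 2.62, and 0.11 for all genes tested. In 35 of the 76 the log2 fold change was at least 1, and in 6 at least 2. The upper quartile over all genes tested was 0.51. For 73 of the 76, every WT liver on MCD lay above every WT liver on chow. The share of all genes tested that were separated in this way is not given here.

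Pctp-/- livers showed the same direction on MCD, with 61 genes that rose, 1 that fell and 14 that were not called. Among all genes tested 26% rose and 24.4% fell in this comparison. The median log2 fold change was 0.70 for the ribosomal protein genes, from -0.53 to 2.38, and 0.038 for all genes tested. All 61 genes that rose in Pctp-/- livers also rose in WT livers. In Pctp-/- livers 18 had a log2 fold change of at least 1, and the upper quartile over all genes tested was 0.38.

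**Figure D2:**
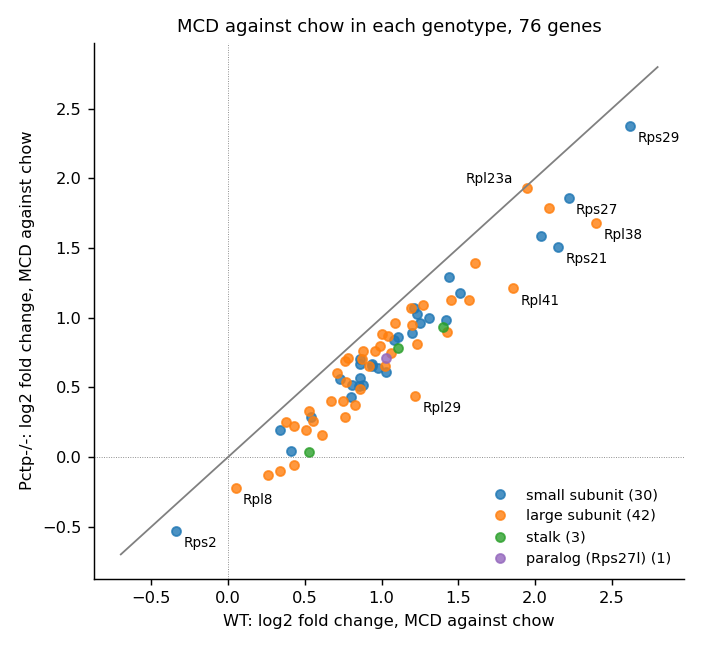
Log2 fold change of MCD against chow in WT livers (horizontal axis) and in Pctp-/- livers (vertical axis) for the 76 genes tested, coloured by role; the grey line marks equal changes. All 76 genes lie below the line, with Rps29 highest in both genotypes and Rps2 lowest.

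Both subunits took part. Of the 30 small subunit genes, 29 rose in WT and 26 in Pctp-/- livers, with median log2 fold changes of 1.01 and 0.69. Of the 42 large subunit genes tested, 40 rose in WT and 32 in Pctp-/- livers, with medians of 0.90 and 0.69.

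Rps29, a short zinc-binding protein of the small subunit head, had the largest rise in both genotypes. Its FPKM was 131, 184 and 180 in WT and 186, 195 and 220 in Pctp-/- livers on chow, and 973, 955 and 1113 in WT and 892, 1153 and 1115 in Pctp-/- livers on MCD. The MCD livers of either genotype lay far above all chow livers. The log2 fold change was 2.62 (SE 0.14, limma adjusted p = 8.86e-08) in WT and 2.38 (SE 0.14, limma adjusted p = 2.1e-07) in Pctp-/- livers. By level it ranked 44 among the 80 genes in WT livers on chow.

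Rpl38, a small protein of the large subunit known for its part in the translation of Hox mRNAs, followed in WT livers. It was at 101, 143 and 153 FPKM in WT and 154, 142 and 200 FPKM in Pctp-/- livers on chow, and at 670, 690 and 723 and 555, 501 and 523 FPKM on MCD. The diets did not overlap in either genotype, and on MCD every Pctp-/- liver lay below every WT liver. The log2 fold change was 2.40 (SE 0.16, limma adjusted p = 2.81e-07) in WT and 1.68 (SE 0.16, limma adjusted p = 5.15e-06) in Pctp-/- livers.

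Rps27 was less even between livers. On chow it was at 285, 592 and 567 FPKM in WT and 488, 381 and 488 FPKM in Pctp-/- livers, and on MCD at 1891, 2070 and 2472 FPKM in WT and 2416, 1404 and 1295 FPKM in Pctp-/- livers. Its rise, 2.22 (SE 0.28, limma adjusted p = 4.02e-05) and 1.86 (SE 0.28, limma adjusted p = 0.000186) on the log2 scale, exceeded this spread in both genotypes. The relative of this gene outside the core set, the p53-responsive paralog Rps27l, was at 152 to 253 FPKM in the chow livers and 281 to 433 FPKM in the MCD livers, and rose by 1.03 in WT (SE 0.17, limma adjusted p = 0.000248) and 0.71 in Pctp-/- livers (SE 0.17, limma adjusted p = 0.0037).

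Rps21, a small subunit protein involved in the maturation of its rRNA, was at 162, 203 and 205 FPKM in WT and 235, 206 and 227 FPKM in Pctp-/- livers on chow. On MCD it was at 788, 826 and 915 FPKM in WT and 826, 573 and 546 FPKM in Pctp-/- livers, with log2 fold changes of 2.15 (SE 0.15, limma adjusted p = 4.97e-07) and 1.51 (SE 0.15, limma adjusted p = 8.44e-06). Rpl39, which lines the exit tunnel for the growing peptide, went from 83.3, 122 and 121 to 410, 459 and 513 FPKM in WT livers. In Pctp-/- livers it went from 104, 106 and 132 to 449, 377 and 359 FPKM. Its log2 fold changes were 2.09 (SE 0.16, limma adjusted p = 8.74e-07) and 1.79 (SE 0.16, limma adjusted p = 3.65e-06).

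Rpl23a, which sits at the tunnel exit where nascent chains meet the signal recognition particle, had the second largest rise in Pctp-/- livers, after Rps29, but varied most within that group. It was at 6, 14.1 and 14.7 FPKM on chow and 19.9, 64.4 and 66.2 FPKM on MCD in Pctp-/- livers, against 9.22, 5.59 and 5.15 and 25.9, 28.7 and 28.7 FPKM in WT livers. The log2 fold changes were 1.93 (SE 0.41, limma adjusted p = 0.0022) in Pctp-/- and 1.95 (SE 0.41, limma adjusted p = 0.00171) in WT livers. On both diets, Pctp-/- livers 2 and 3 stood well above Pctp-/- liver 1. The same split was seen in Rpl35, at 13.6, 23.3 and 22.4 FPKM on chow and 17.4, 43.1 and 43.1 FPKM on MCD in Pctp-/- livers, and these were the only 2 of the 76 genes in which both livers exceeded liver 1 by at least 1.5 times on both diets. Rpl23a has 20 near-identical copies and overlaps Tlcd1 on the opposite strand, and Rpl35, named after its values were seen, has no such copy and overlaps Arpc5l and Wdr38 on the opposite strand.

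**Figure D3:**
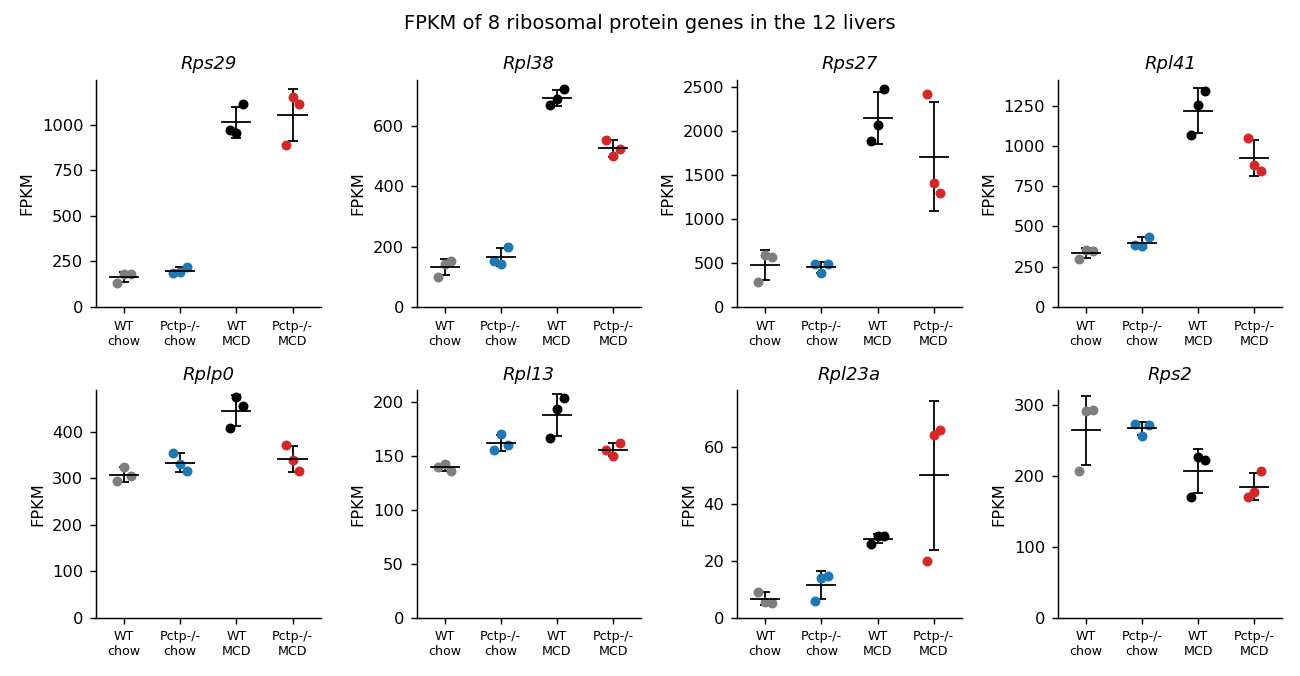
FPKM of 8 ribosomal protein genes in the 12 livers by group; points are livers, and lines and bars give the mean ± SD (n = 3), with each axis starting at 0. Rps29, Rpl38, Rps27 and Rpl41 are higher in all MCD livers than in all chow livers. Rplp0 and Rpl13 lie higher in WT than in Pctp-/- livers on MCD, and Rpl23a is split within the Pctp-/- groups. Rps2 is lower on MCD in Pctp-/- livers, while in WT livers the diets overlap.

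Rps2, a small subunit protein at the entry of the mRNA channel, went the other way. Its FPKM was 208, 292 and 294 in WT and 274, 257 and 272 in Pctp-/- livers on chow, and 171, 227 and 223 in WT and 171, 178 and 207 in Pctp-/- livers on MCD. It fell by 0.53 on the log2 scale in Pctp-/- livers (SE 0.15, limma adjusted p = 0.00949), where the diets did not overlap. In WT livers, where they did overlap, the log2 difference was -0.34 (SE 0.15, limma adjusted p = 0.0618). Rps2 has 27 near-identical copies, and the 20 in the table had a summed level of 303 to 423 FPKM, above Rps2 itself in every liver, so the division of reads between them matters for this gene.

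Beside Rps2, 2 genes named after their values were seen did not rise in WT livers: Rpl8, near the peptidyl transferase centre, with a log2 difference of 0.049 (SE 0.10, limma adjusted p = 0.696), and Rpl6, with 0.26 (SE 0.12, limma adjusted p = 0.0816). In Pctp-/- livers the 14 genes without a call were Rps3, Rps9, Rpsa, Rpl4, Rpl6, Rpl8, Rpl10, Rpl11, Rpl13, Rpl14, Rpl18, Rpl28, Rpl35 and Rplp0. All but Rpl6 and Rpl8 were called in WT livers. A call in 1 genotype and not in the other does not show a difference between them, which is tested further on.

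The stalk, which contacts initiation and elongation factors, rose in WT livers in all 3 of its genes. Rplp1 was at 476, 629 and 640 FPKM on chow and 1360, 1509 and 1709 FPKM on MCD in WT livers, and at 628, 609 and 687 and 1294, 1212 and 1161 FPKM in Pctp-/- livers. Its log2 fold changes were 1.40 (SE 0.13, limma adjusted p = 3.15e-06) and 0.93 (SE 0.13, limma adjusted p = 8.92e-05). Rplp2 rose by 1.11 in WT (SE 0.14, limma adjusted p = 3.35e-05) and 0.78 in Pctp-/- livers (SE 0.14, limma adjusted p = 0.000547). Rplp0, the base of the stalk and a common reference gene in quantitative PCR, was at 294, 325 and 304 FPKM on chow and 408, 474 and 455 FPKM on MCD in WT livers, and at 355, 331 and 315 and 371, 340 and 315 FPKM in Pctp-/- livers. It rose by 0.53 in WT livers (SE 0.094, limma adjusted p = 0.000476), and in Pctp-/- livers the log2 difference was 0.034 (SE 0.094, limma adjusted p = 0.788), a value whose sign turned with the scaling between libraries.

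Among the small subunit genes with known further roles, Rps6, whose phosphorylation is a readout of mTORC1, was at 161, 181 and 183 FPKM on chow and 271, 309 and 292 FPKM on MCD in WT livers, and at 187, 187 and 190 and 255, 278 and 298 FPKM in Pctp-/- livers. The rise was 0.73 (SE 0.089, limma adjusted p = 3.16e-05) and 0.56 (SE 0.089, limma adjusted p = 0.000291) on the log2 scale. Rps19, which is mutated in Diamond-Blackfan anaemia, rose by 0.88 and 0.52, the ubiquitin fusion gene Rps27a by 1.25 and 0.96, and the X-linked Rps4x by 0.86 and 0.70 in WT and Pctp-/- livers, all past the threshold. Rps3, which lies at the mRNA entry and has a DNA repair activity, and Rpsa, also known as the laminin receptor, rose in WT livers by 0.34 (SE 0.086) and 0.54 (SE 0.11), past the threshold. In Pctp-/- livers their log2 differences were 0.19 (SE 0.086, limma adjusted p = 0.0813) and 0.29 (SE 0.11, limma adjusted p = 0.052).

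Of the large subunit genes with known further roles, Rpl5 and Rpl11 form a particle that binds MDM2 when ribosome assembly fails. Rpl5 was at 76.2, 80.5 and 83.8 FPKM in WT livers on chow and 122, 139 and 149 FPKM on MCD, and rose by 0.76 (SE 0.087, limma adjusted p = 1.99e-05), with 0.69 (SE 0.087, limma adjusted p = 5.42e-05) in Pctp-/- livers. Rpl11 rose by 0.55 in WT livers (SE 0.11, limma adjusted p = 0.000992), and its log2 difference in Pctp-/- livers was 0.26 (SE 0.11, limma adjusted p = 0.0604). Rpl13a, which also represses the translation of some inflammatory mRNAs, went from 275, 276 and 289 to 658, 836 and 809 FPKM in WT and from 309, 354 and 371 to 665, 776 and 831 FPKM in Pctp-/- livers, log2 fold changes of 1.45 and 1.13 past the threshold. Rpl22, a protein that is dispensable for translation in many tissues, rose by 0.78 and 0.71. Rpl10, which joins the large subunit last in its maturation, rose by 0.38 in WT livers (SE 0.097, limma adjusted p = 0.00503), and in Pctp-/- livers the difference was 0.25 (SE 0.097, limma adjusted p = 0.0514).

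The size of the rise went with the length of the protein. The 10 tested genes with a coding length under 300 bases all rose in both genotypes. Of 254 other protein-coding genes of that length, 169 rose in WT and 123 in Pctp-/- livers. The median log2 fold changes of the 10 were 2.06 in WT and 1.55 in Pctp-/- livers. The 45 genes of 300 to under 600 bases had medians of 1.00 and 0.76, the 18 genes of 600 to under 900 bases 0.66 and 0.41, and the 3 genes of 900 bases and over (Rpl3, Rpl4 and Rplp0) 0.53 and 0.22. Over the 76 genes, Spearman's rho between the log2 of the coding length and the log2 fold change was -0.695 in WT and -0.650 in Pctp-/- livers (Pearson's r -0.738 and -0.660). Genes of 1 library are not independent replicates, and no test is given.

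Other protein-coding genes showed the same order at smaller sizes. For those with a coding length under 300 bases (254 genes), the medians were 0.69 in WT and 0.40 in Pctp-/- livers, for 300 to under 600 bases (1252 genes) 0.43 and 0.24, for 600 to under 900 bases (1601 genes) 0.24 and 0.075, and for 900 bases and over (8119 genes) 0.046 and -0.0025. The medians of the ribosomal protein genes lay above those of the other genes in all 4 classes and both genotypes. After a correction for transcript length and GC content the medians of the ribosomal protein genes were 0.80 in WT and 0.58 in Pctp-/- livers. Of these genes 72 and 59 rose, and rho with coding length was -0.590 and -0.548. The share of all genes that rose after this correction is not given here. The part that mapping and read quality had in this order was not tested.

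**Figure D4:**
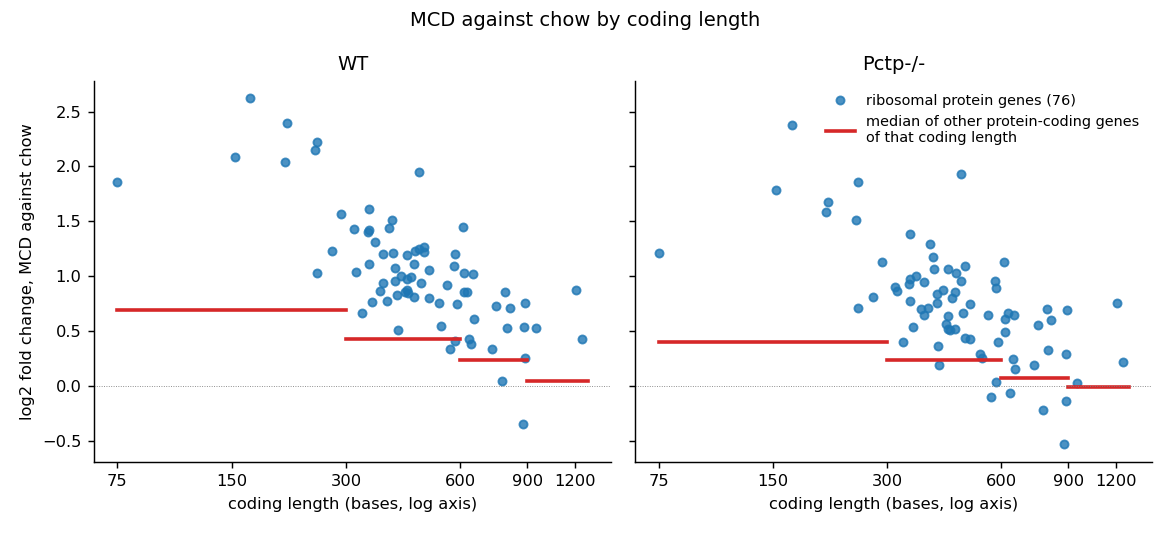
Log2 fold change of MCD against chow (vertical axis) by coding length in bases (horizontal log axis) for the 76 ribosomal protein genes in WT (left) and Pctp-/- livers (right); red lines are the medians of other protein-coding genes in 4 length classes, the last of which is open upwards. The genes under 300 bases have medians of 2.06 and 1.55, against 0.69 and 0.40 for other genes of that length.

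Rpl41, with the shortest coding sequence, is printed because it marks the short end of this order. Read from GENCODE M21, with the start and stop codon in capitals, it has 78 bases for 25 residues.
Rpl41 (GRCm38 chromosome 10, gene from 128548114 to 128549305, minus strand): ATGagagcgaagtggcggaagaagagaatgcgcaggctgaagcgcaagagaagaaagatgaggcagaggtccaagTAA

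The rises on MCD were compared between genotypes next, which asks whether PC-TP bears on the response to the diet. In all 76 genes the log2 difference between the diets was lower in Pctp-/- than in WT livers, as it was in 8049 of all 12466 genes tested. The median difference of the effects was -0.29 (from -0.78 to -0.017), against -0.096 for all genes tested. With median-of-ratios scaling the medians were -0.19 and -0.019. None of the 76 differences passed the threshold in limma, where 0.0963% of all genes were called, and the smallest adjusted p was 0.132. At an unadjusted p under 0.05, 25 of the 76 had a smaller rise in Pctp-/- livers, against 11.2% of all genes tested, and 0 had a larger one. The genes share the same 12 livers, and values of a library tended to deviate together: the first WT liver on chow had the lowest value of its group in 70 of the 76 genes and the first WT liver on MCD in 72 of 76. Without the first WT liver on chow the median difference was -0.17, and 1 ribosomal protein gene, Rpl29, was called among 60 of all 12466 genes tested (12 with all libraries), with a difference of -1.01 (SE 0.17, limma adjusted p = 0.0471). Rpl29, named after its values were seen, has 27 near-identical copies.

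The 3 genes with the smallest p were Rpl13, Rpl41 and Rplp0. Rpl41 was at 301, 356 and 348 FPKM in WT and 384, 376 and 437 FPKM in Pctp-/- livers on chow, and at 1067, 1251 and 1338 FPKM in WT and 1048, 884 and 841 FPKM in Pctp-/- livers on MCD. The genotypes did not overlap on either diet, with Pctp-/- livers above WT on chow and below on MCD. The rise was 1.86 in WT and 1.21 in Pctp-/- livers, both past the threshold, and their difference was -0.65 (SE 0.17, limma adjusted p = 0.132). The single near-identical copy of Rpl41 was at 55.0, 87.9 and 96.7 FPKM in WT and 92.5, 60.2 and 74.6 FPKM in Pctp-/- livers on chow, and at 459, 485 and 509 and 460, 146 and 126 FPKM on MCD, so the copy too was lower in Pctp-/- livers 2 and 3.

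Rpl13, a large subunit protein, was at 140, 143 and 136 FPKM in WT and 156, 171 and 160 FPKM in Pctp-/- livers on chow, and at 167, 194 and 204 FPKM in WT and 156, 150 and 162 FPKM in Pctp-/- livers on MCD. It rose by 0.43 on MCD in WT livers (SE 0.088, limma adjusted p = 0.00141), and in Pctp-/- livers the log2 difference was -0.057 (SE 0.088, limma adjusted p = 0.614), whose sign turned under quantile normalization and under the correction for length and GC content. The difference of the effects was -0.48 (SE 0.12, limma adjusted p = 0.132). For Rplp0, given above, it was -0.50 (SE 0.13, limma adjusted p = 0.139).

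Pctp-/- livers were compared with WT livers on chow, and no ribosomal protein gene was called, against 0.136% of all genes tested. The median log2 fold change was 0.096, against 0.006 for all genes tested. Of the 76 values, 69 were above 0, as were those of 6456 of all 12466 genes tested. At an unadjusted p under 0.05, 6 genes were higher in Pctp-/- livers (3.35% of all genes were), and the smallest adjusted p was 0.481. In 15 of the 76 every Pctp-/- liver lay above every WT liver, which held for 5.17% of all genes tested. Without the first WT liver on chow, the deepest library of the series and the one with the lowest FPKM total, the median was -0.012.

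On MCD no ribosomal protein gene was called either, against 0.818% of all genes tested. The median log2 fold change of Pctp-/- against WT was -0.19, against -0.093 for all genes tested. Of the 76 values, 73 were below 0, as were those of 8767 of all 12466 genes tested. With median-of-ratios scaling the medians were -0.081 and -0.0068. At an unadjusted p under 0.05, 18 genes were lower in Pctp-/- livers, where 13% of all genes were, and in 19 of the 76 every Pctp-/- liver lay below every WT liver, where 21.1% of all genes did. The share of ribosomal protein genes that did not overlap was thus near that of all genes. The gene with the smallest p was Rplp0, with a log2 difference of -0.38 (limma adjusted p = 0.0871).

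In 4 of the 76 genes (Rpl13, Rpl15, Rpl41 and Rps19) every Pctp-/- liver lay above every WT liver on chow and below every WT liver on MCD, a pattern held by 1.56% of all genes tested. Rpl15, named for this pattern after its values were seen, was at 56.9, 62.1 and 61.8 FPKM in WT and 62.7, 64.8 and 68.3 FPKM in Pctp-/- livers on chow, and at 107, 108 and 116 and 97.8, 86.8 and 92.4 FPKM on MCD. Rps19 was at 48.1, 53.7 and 51.4 and 54.5, 56.0 and 58.8 FPKM on chow, and at 84.6, 103 and 96.3 and 80.9, 79.7 and 84.1 FPKM on MCD. In both genes the difference between the diets was larger than that between the genotypes.

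**Figure D5:**
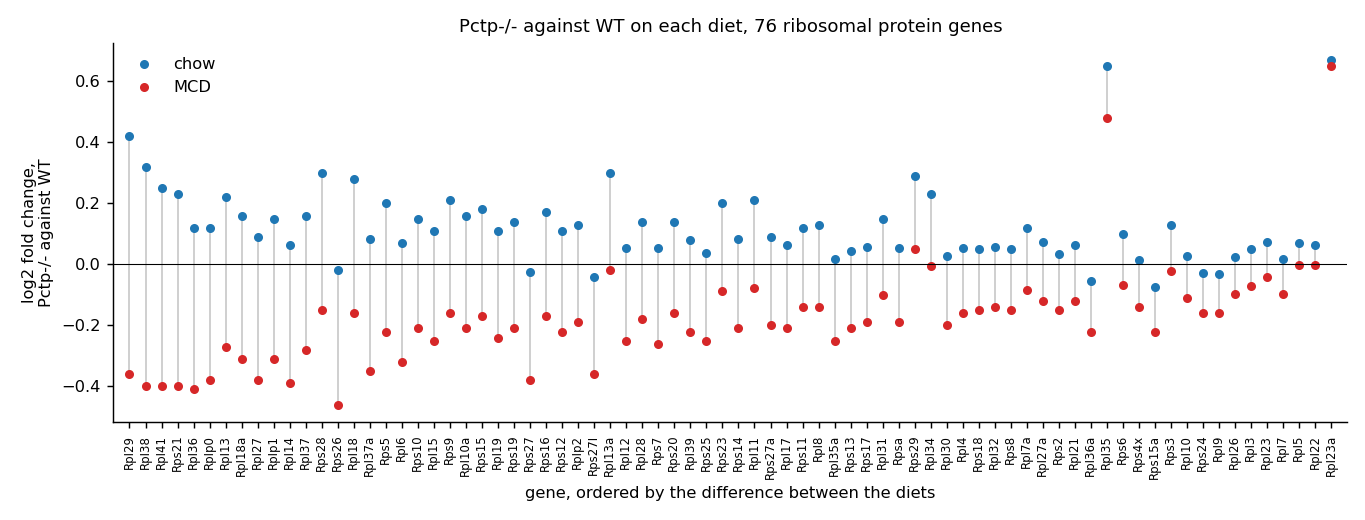
Log2 fold change of Pctp-/- against WT livers on chow (blue) and on MCD (red) for the 76 genes, ordered from left by the difference between the diets. The points on chow lie mostly above 0 (median 0.096) and those on MCD mostly below it (median -0.19), apart from Rpl35, Rpl23a and Rps29 (0.05), and no single value passed the threshold.

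The other genes of translation were read from lists in the same fit. Of all genes tested, 34.5% rose and 22.5% fell on MCD in WT livers, and 26% rose and 24.4% fell in Pctp-/- livers. Of 18 genes other than ribosomal proteins whose mRNAs carry TOP tracts, 11 rose and 1 fell on MCD in WT livers (median 0.47), and 10 rose and 1 fell in Pctp-/- livers (median 0.46). Hnrnpa1, an RNA-binding protein of splicing, rose by 1.75 (SE 0.11, limma adjusted p = 2.82e-07) in WT and 1.42 in Pctp-/- livers, and Tpt1, the translationally controlled tumour protein, rose by 1.03 in WT and 0.85 in Pctp-/- livers. The elongation factor Eef2 fell by 0.92 in Pctp-/- livers (SE 0.093, limma adjusted p = 1e-05), from 713 to 781 FPKM on chow to 359 to 420 FPKM on MCD, and by 0.85 in WT livers (SE 0.093, limma adjusted p = 1.34e-05).

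Of 31 initiation factor genes, 17 rose and 2 fell in WT (median 0.37), and 8 rose and 6 fell in Pctp-/- livers (median 0.14). Eif4e, which binds the mRNA cap, rose by 1.17 in WT and 0.88 in Pctp-/- livers, and Eif2s1, the subunit through which stress kinases halt initiation, rose by 1.13 and 0.91. Of 48 tested genes for ribosome biogenesis, 18 rose and 4 fell in WT (median 0.22), and 4 rose and 12 fell in Pctp-/- livers (median -0.076). The shares of biogenesis genes that rose in WT and fell in Pctp-/- livers were near those of all genes tested (34.5% and 24.4%), as was the share of initiation factor genes that rose in Pctp-/- livers (26% of all genes), while the shares of biogenesis genes that fell in WT and rose in Pctp-/- livers lay below those of all genes (22.5% and 26%). Nhp2, a protein of the particles that modify rRNA, was at 21.7 to 24.7 FPKM on chow and 65.3 to 81.7 FPKM on MCD in WT livers, and was the 1 gene of these lists that differed between genotypes, at 36.7 to 49.0 FPKM in Pctp-/- livers on MCD (log2 fold change against WT -0.72, SE 0.12, limma adjusted p = 0.021).

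Of 20 tested genes of the mTORC1 pathway and the La-related proteins, 6 rose and 7 fell in WT (median 0.12), and 2 rose and 6 fell in Pctp-/- livers (median 0.034). Ddit4, which inhibits mTORC1 under stress, rose by 4.07 in WT livers (SE 0.49, limma adjusted p = 2.82e-05), from 2.44 to 4.57 FPKM on chow to 45.6 to 143 FPKM on MCD. In Pctp-/- livers Ddit4 was at 5.52 to 13.9 FPKM on chow and 6.51 to 25.6 FPKM on MCD, a log2 difference of 0.49 (SE 0.49, limma adjusted p = 0.43), and the difference of the diet effects was -3.58 (SE 0.69, limma adjusted p = 0.0694). Tsc2, another inhibitor, fell by 1.08 in WT and 0.89 in Pctp-/- livers. The mitochondrial ribosomal proteins, which serve a separate set of ribosomes, were split more evenly: of 76 tested, 46 rose and 6 fell in WT (median 0.38), and 30 rose and 14 fell in Pctp-/- livers (median 0.13).

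Markers of other cells were read in the same fit, in which 34.5% of all genes tested rose on MCD in WT and 26% in Pctp-/- livers. Of 9 tested leukocyte and macrophage markers, 6 rose in WT and 4 in Pctp-/- livers, and the summed level of the list of 12 went from 94.6 to 180 FPKM on chow to 253 to 547 FPKM on MCD in WT livers, and from 105 to 250 to 312 to 372 FPKM in Pctp-/- livers, with no marker at 0 in all livers of a group. Of 11 tested stellate, endothelial and bile duct markers, 2 rose in WT and 0 in Pctp-/- livers (limma, where 0 also had an unadjusted p under 0.05), with summed levels of 44.5 to 60.1 FPKM on chow and 64.4 to 83.3 FPKM on MCD in WT livers and 49.6 to 64.8 and 56.4 to 64.5 FPKM in Pctp-/- livers, where the diets overlapped. The shares of these 11 genes that rose lay below those of all genes tested. The part of these other cells in the rise of the ribosomal protein genes was not tested. In whole liver, fewer cells of a type and less RNA per cell cannot be told apart.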

How the data were processed

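Liver RNA of 12 mice was sequenced by Novogene. The authors deposited FPKM per gene and library with a table of read totals and percentages of mapped reads. That table was used to describe depth, mapping and read quality. The submitters' processing notes list mm10, and the aligner, the counting tool and the strand setting are not given in the sources used here. Groups came from the labels. Genes with a mean of at least 0.5 FPKM (12466 of 35275) were fitted with limma 3.58.1 (R 4.3.3) on log2(FPKM + 1), with 1 mean per group over 12 libraries and a mean-variance trend. The 5 contrasts were two-sided with Benjamini-Hochberg adjustment over all genes tested, and genes with adjusted p under 0.05 were called with no minimum fold, as FPKM do not allow a test on counts. The method was run on simulated data in which each gene varied independently. Such data do not cover libraries whose values deviate together.

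Symbols, lengths, GC content and overlaps came from GENCODE M21 (34490 identifiers matched), and start regions from RefSeq (GRCm38.p6). Members and lists were chosen with earlier results of these data known. Named genes were, per comparison of groups, the 5 largest rises and falls among called genes whose groups did not overlap, the 3 smallest p for the difference of diet effects, 15 genes with known further roles, the paralogs, the 3 most and 3 least abundant, and up to 3 called genes per list. Replicate numbers count different mice, and over all genes tested same-numbered livers deviated together weakly or not at all (correlations -0.0972 to 0.225). No block was therefore used in the main fit. Of the 76 ribosomal protein genes, 70 and 72 were lowest in liver 1 of the WT groups on chow and MCD. In the Pctp-/- groups 39 and 24 were. Alternatives changed the pseudocount, the filter, the scaling, the libraries, the limma options and a length and GC correction.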

Additional observations from a re-analysis of the deposited data

How the results depend on the processing

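The counts of genes called on MCD kept within 1.5 times of the values given under all alternatives. The shares of all genes tested that were called on MCD under these alternatives are not given here. The counts below therefore cannot be set against them. Leaving out each library gave 71 to 74 genes called in WT and 58 to 66 in Pctp-/- livers, medians of 0.84 to 1.05 and 0.66 to 0.74, a median difference between the diet effects of -0.37 to -0.17 with 0 to 1 genes called, and medians for Pctp-/- against WT of -0.012 to 0.16 on chow and -0.27 to -0.13 on MCD with 0 called. The median rise in WT livers was 0.84 with median-of-ratios scaling, which brought the median of all genes to 0.0062, and 0.80 with the length and GC correction, under which it was 0.58 in Pctp-/- livers. With a replicate block, 74 genes were called in WT and 64 in Pctp-/- livers, and the count of genes called in the 3 other comparisons was 0. The 4 other scalings gave medians for Pctp-/- against WT of 0.064 to 0.11 on chow and -0.18 to -0.081 on MCD. The log2 difference of Rpl13 on MCD in Pctp-/- livers was 0.073 with quantile normalization and 0.16 with the length and GC correction (0.17 where the curve was fitted without the ribosomal protein genes), and that of Rplp0 was -0.00013 with median-of-ratios scaling, -0.027 with all libraries rescaled to the same total, and -0.026 to 0.091 when each library was left out. The cause was not tested. A length and GC curve fitted without the ribosomal protein genes, chosen after seeing the data, gave medians of 0.83 and 0.60. Precision is limited by 3 livers per group, the unknown division of reads between gene copies, and read quality and mapping measures that differ with diet.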

Other observations

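A few ribosomal protein genes fall outside the naming rule. Rps3a1, a small subunit protein, was at 241, 274 and 303 FPKM in WT livers on chow and 378, 440 and 452 FPKM on MCD, and rose by 0.64 (SE 0.10, limma adjusted p = 0.000216). Fau, which encodes a ubiquitin-like protein fused to a small subunit protein, was at 309, 323 and 292 FPKM on chow and 311, 362 and 356 FPKM on MCD in WT livers, and was not called. Rpl22l1, the paralog that can take the place of Rpl22, was at 45.2, 46.6 and 42.6 FPKM in WT and 32.5, 37.9 and 50.3 FPKM in Pctp-/- livers on chow, and at 146, 158 and 188 and 157, 156 and 137 FPKM on MCD. Its rise was 1.84 in WT (SE 0.14, limma adjusted p = 1.04e-06) and 1.89 in Pctp-/- livers (SE 0.14, limma adjusted p = 1.09e-06), beside 0.78 and 0.71 for Rpl22.

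Rps4l and Rpl6l carry matching symbols but are pseudogenes in the annotation. Rps4l was at 9.27, 2.54 and 4.99 FPKM in WT and 8.85, 15 and 26.8 FPKM in Pctp-/- livers on chow, and at 2.34 to 3.90 FPKM in the 6 MCD livers. Levels of some copies divided the Pctp-/- livers on MCD. Among 22 ribosomal protein genes whose copies had a mean summed level of at least 10 FPKM, the copies of 5 (Rpl12, Rpl29, Rpl34, Rpl41 and Rps27) were lower by at least 1.5 times in Pctp-/- livers 2 and 3 than in liver 1 on MCD, and 1 was higher. The summed copies of Rpl34 were at 389, 173 and 152 FPKM in these livers, and Rpl34 itself at 82.4, 102 and 100 FPKM. In the other 3 groups no gene's copies were lower in this way, and in WT livers on chow those of 7 were higher in livers 2 and 3. These genes were chosen after their values were seen.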
